A study of Danio rerio with 12 samples.

Results

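Polyadenylated RNA of control zebrafish embryos was compared between 2 and 4 hours post fertilization (hpf), the interval in which the embryo passes from RNA laid down in the egg to the first transcripts of its own genome. The deposited tables list 33737 genes, and the 14469 genes with an RPKM (read counts divided by gene length and sequencing depth) of at least 1 at 2 or at 4 hpf were compared. Control embryos are labelled wild type and ddx3xb+/+, and whole embryos at each hour are represented by 2 samples. Each hour has 1 deposited value per gene, the authors' group value, so values carry no standard deviation and no p-value can be given. Tables of embryos labelled Ddx3xb-/Ddx3xb-, which carry a mutation of the DEAD-box RNA helicase gene ddx3xb, and of controls at 6 hpf were used for reference. The labels do not say how many embryos or which clutches entered a library.

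In zebrafish the cleaving egg divides rapidly on maternal RNA while its genome is largely silent. Transcription begins broadly at the mid-blastula transition, driven in this species by the maternal transcription factors Nanog, Pou5f3 and Sox19b. Maternal RNAs are cleared over the same hours and after them, by factors supplied with the egg and by products of the zygotic genome, among them the microRNA miR-430. Because the RNA was selected by its poly(A) tail, a change in amount and a change in tail length cannot be told apart here. In whole embryos, fewer cells expressing a gene and less RNA per cell cannot be told apart either.

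The targeted gene was present in control embryos at both hours. ddx3xb stood at an RPKM of 325 at 2 hpf and 318 at 4 hpf in controls, against 0.697 and 18.8 in the mutant tables. Its paralog ddx3xa stood at 107 and 117 in controls and at 97.4 and 108 in mutants. Reads recovered from the low values of the tables (see the processing account) gave depths of 55.2 and 49.7 M reads for the 2 libraries of 2 hpf and 53.8 and 50.3 M for those of 4 hpf. Markers of differentiated tissues were low, as 14 of the 15 marker genes found had an RPKM under 1 at both hours. Of 9 markers of ovarian follicle cells, 8 were under 1 at both hours, and the other, CYP17A1, a steroid-making enzyme, stood at 76.5 at 2 hpf and 47.5 at 4 hpf.

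More genes rose than fell between 2 and 4 hpf. A gene was counted as changed when log2(RPKM + 1) differed by at least 1. By this measure 1499 of 14469 genes (10.4%) were higher at 4 hpf and 484 (3.35%) were lower, and after quantile normalization of the tables these counts were 1204 and 671. The median difference over all compared genes was 0.02, and 9501 genes (65.7%) differed by less than 0.5. Increases were also larger than decreases. Differences of at least 3 log2 were found upward for 273 genes and downward for 1, and the extremes were 7.71 and -3.44. The added constant understates differences of genes with low values.

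**Figure D1:**
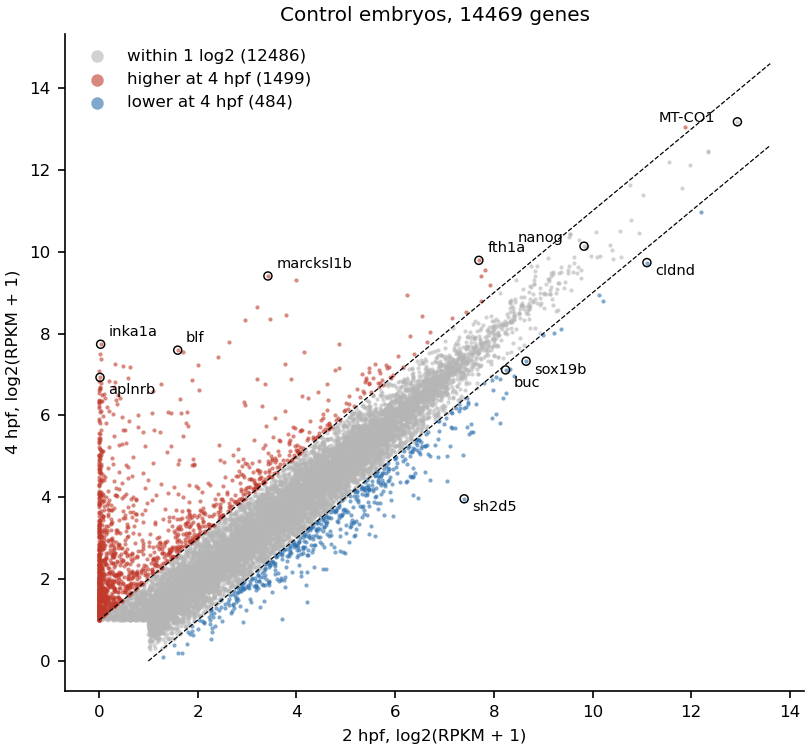
Each point is 1 of 14469 genes in control embryos, with log2(RPKM + 1) at 2 hpf on the horizontal axis and at 4 hpf on the vertical axis; dashed lines mark a difference of 1 log2. The 1499 higher genes (red) stand mostly along the left edge, at low levels at 2 hpf. Most of the 484 lower genes (blue) lie close under the lower line, while 30 are lower by at least 2 log2, sh2d5 furthest. Kept genes have an RPKM of at least 1 at one hour or the other, which cuts out the lower left corner.

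The genes that rose were mostly at or near 0 beforehand. At 2 hpf 997 of the 1499 (66.5%) had an RPKM under 1 and 321 of these were listed at 0, while 254 stood at 1 to under 5 and 248 at 5 or more. Their median at 4 hpf was 5.74, 542 reached 10 and 77 reached 100. A gene under 1 at 2 hpf was compared only because it reached 1 at 4 hpf, so its direction follows in part from the filter; 1599 genes were kept in this way and 342 through 2 hpf alone. Among genes with an RPKM of at least 1 at both hours, 502 were higher and 462 lower. Of the 1499 genes, 628 (41.9%) had no symbol in the name table, against 23.0% of all compared genes and 15.3% of the genes that fell.

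Where reads could be recovered, the 2 hpf values behind these increases rested on few of them. For 190 of the genes that rose the reads at 2 hpf could be recovered, and 129 of them had 5 reads or fewer over both libraries (median 3). Only low values allow this recovery, so the 190 genes do not stand for all that rose, of which 248 had an RPKM of at least 5 at 2 hpf. nnr had 1 read and reached an RPKM of 181, apela had 1 read and reached 25.5, and krt18a.1 had 1 read and reached 78.0. For aplnrb 3 reads were found, all in 1 library, before an RPKM of 121 at 4 hpf. Which of the 2 replicates a recovered library is cannot be read from the values.

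Among genes with a usable symbol and an RPKM of at least 5 at the higher hour (7393 genes), inka1a, an actin-regulator gene, had the largest increase, from 0.0234 at 2 hpf to 213 at 4 hpf (log2 difference 7.71). nnr went from 0.00954 to 181 (7.50). The zinc finger gene znf1089 was listed at 0 and then stood at 136 (7.09). These 3 genes took different courses afterwards, since at 6 hpf inka1a stood at 13.2, nnr at 301 and znf1089 at 2.13.

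The next in order included genes for signalling, shape and lipid transport. akap12b, a kinase-anchoring protein gene, went from 0.255 to 153, and aplnrb, a receptor for apelin and for the peptide encoded by apela, from 0.0145 to 121. vgll4l, a vestigial-like cofactor gene, went from 0.0255 to 110, and the hairy-related repressor gene her5 from 0.401 to 148. marcksl1a rose from 0.0103 to 101 and its paralog marcksl1b, of the same family of actin-binding proteins, from 9.72 to 679. apoeb, an apolipoprotein E gene, rose from 0.539 to 144 and stood at 1954 at 6 hpf. Also among the 15 largest increases were slc25a55a, a mitochondrial carrier gene (0.158 to 114), GADD45B (0.245 to 111), the sulfotransferase gene sult6b1 (0.0449 to 89.6), mxtx2 (0.0690 to 91.2), the ubiquitin-like gene isg15 (0 to 82.4) and the small heat shock gene HSPB1 (0.241 to 102). GADD45B stands on 2 gene IDs, and the other rose as well, from 0.0328 to 20.8.

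A list of first-wave zygotic genes, which holds several of those just named, had 30 of its 40 names in the tables and 28 genes with enough RNA to compare. It was drawn up with earlier results of these tables known, so its direction is not independent of them. All 28 were higher, by 2.72 to 7.71 log2, and 26 of them were kept through 4 hpf alone. The list's total RPKM went from 9.10 to 2469. Its smallest increases were of PHLDA3 (2.72 log2, from 0.826 at 2 hpf) and the Nodal ligand gene ndr1 (2.75 log2, from 0.915 to 11.9). Both other named members, FOXD3 (0 to 0.0214) and the protocadherin gene pcdh8 (0.230 to 0.382), stayed under the floor.

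**Figure D2:**
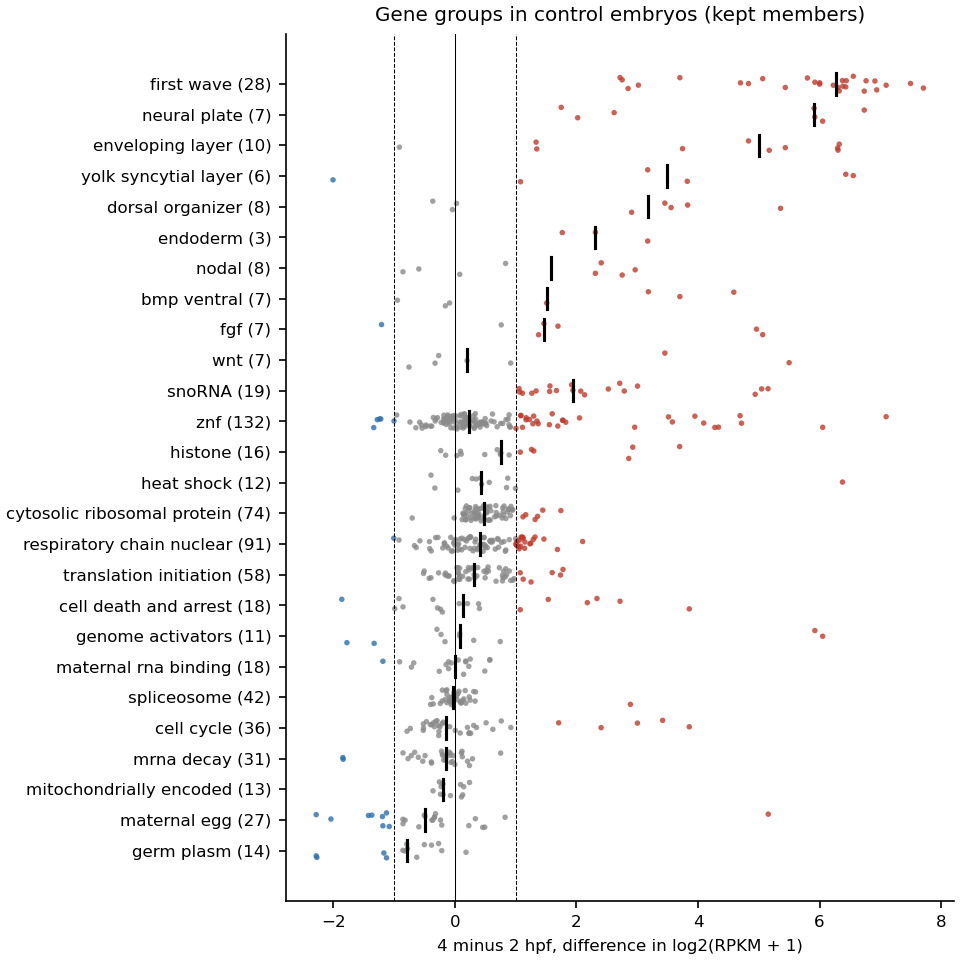
Each point is a compared gene of the group named on the left, with the number of compared genes in brackets; the horizontal axis gives the difference in log2(RPKM + 1), 4 minus 2 hpf, and the black bar is the group's median. Red points are higher and blue points lower by at least 1 log2 (dashed lines). Medians run from 6.26 for first-wave genes to -0.79 for germ plasm RNAs, and the mRNA decay, spliceosome and mitochondrially encoded groups lie close to 0.

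The maternal activators of the genome did not move as 1 group. nanog stood at 908 at 2 hpf and 1126 at 4 hpf, and pou5f3 at 384 and 405, differences of 0.31 and 0.08 log2. sox19b fell from 402 to 160 (-1.33). The related SoxB1 genes went the other way, with SOX3 rising from 0.288 to 77.1 and sox19a from 0.116 to 72.9, while SOX2 stayed under 1 at both hours (0.135 and 0.311). TBPL2, the TATA-binding protein relative of the oocyte, fell from 12.5 to 2.93, whereas TBP stood at 282 and 229. foxh1, the transcription partner of Nodal signalling, stood at 74.0 and 78.3, and kdm6bb, a histone demethylase gene, at 0.244 and 0.293. NFYA, a CCAAT-binding subunit, stands on 2 IDs, at 21.0 and 17.8 for one and 15.8 and 27.1 for the other.

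Some genes of the 2 outer, extraembryonic lineages rose, where 10.4% of all compared genes did. The enveloping layer is the epithelium that covers the blastoderm. Of 17 of its genes found, 9 rose, 7 stayed under an RPKM of 1 at both hours, and TP63 stood at 2.41 and 0.811. Of the 10 compared, 8 were kept through 4 hpf alone, so their direction follows in part from the filter. klf17 (under 1 to 119) and grhl3 (0.0957 to 85.5), transcription factor genes of this layer, and GATA3 (0.0119 to 35.5) rose together with the claudin gene cldne (0.0179 to 43.1). The keratin genes were spread out, from krt18a.1 (0.00489 to 78.0) and krt4 (0.386 to 38.4) over krt8 (1.14 to 27.7) to krt5 (0.699 to 3.32). krt17, krt99, cyt1 and cyt1l were still under 1 at 4 hpf and stood between 36.7 and 195 at 6 hpf.

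In the yolk syncytial layer, the nuclei that lie in the yolk cell and feed and pattern the blastoderm, 12 genes were found. Its regulators mxtx2 (0.0690 to 91.2) and mxtx1 (0 to 13.2) rose, as did foxa3 (0 to 8.02), HNF4A (0.0229 to 1.16) and apoeb. sinup fell from 262 to 64.6. The other 6, among them the lipid transfer gene MTTP (0 to 0.0888), were under 1 at both hours. Of the 6 compared, 5 rose and 1 fell, where 10.4% and 3.35% of all compared genes did. The 5 that rose were kept through 4 hpf alone, so their direction follows in part from the filter.

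Nodal signals induce mesoderm and endoderm, and 4 of 8 pathway genes rose, where 10.4% of all compared genes did. These 4 were kept through 4 hpf alone, so their direction follows in part from the filter. Of these, ndr1 encodes a ligand (0.915 to 11.9), lft1 (0.451 to 6.70) and lft2 (0.0275 to 7.03) encode feedback inhibitors of Nodal, and mixl1 (0.370 to 5.81) is a target. The maternal parts of the pathway did not reach a change of 1 log2. gdf3, the partner ligand known as Vg1, stood at 425 and 282, the co-receptor gene tdgf1 at 91.0 and 163, SMAD2 at 74.1 and 40.6, and foxh1 as given above. Of 4 endoderm genes found, GATA5 rose from 0.0118 to 2.44 beside mixl1 and foxa3, and FOXA2 stayed under 1 (0.0261 and 0.479). The 3 that rose were again kept through 4 hpf alone.

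Of 10 genes of the dorsal organizer found, 8 were compared and 5 rose, where 10.4% of all compared genes did. Of the 8 compared, 4 were kept through 4 hpf alone, so their direction follows in part from the filter. The homeobox gene noto was listed at 0 and then stood at 40.0, the BMP antagonist gene chrd went from 0.0423 to 13.8, and GSC from 1.21 to 15.6. The early dorsal factor dharma went from 0.0262, which was 2 reads, to 11.1, and the Wnt inhibitor gene dkk1b from 0.0639 to 10.7. hwa, whose maternal product sets up the organizer, stood at 3.43 and 2.44, frzb at 1.08 and 1.02, and lhx1a at 5.89 and 6.03. FOXD3 and FOXA2 are also on this list and were under 1.

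On the ventral side 7 of 12 genes found were compared and 4 rose, where 10.4% of all compared genes did. Of the 7 compared, 3 were kept through 4 hpf alone, so their direction follows in part from the filter. ID1, a target of BMP signalling, went from 3.10 to 97.7, TFAP2A from 0.857 to 23.1, the ligand gene bmp7a from 0.392 to 11.6 and TFAP2C from 0.0623 to 2.03. The signal transducer gene SMAD5 stood at 178 and 159, ID3 at 9.06 and 8.47 and msx1b at 6.50 and 2.90. Another 5, among them BMP4 (0.0185 and 0.0594) and eve1 (0 and 0.222), were under 1 at both hours.

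Mesodermal T-box genes and their targets were mostly under an RPKM of 1 at both hours. tbx16 rose from 0.00752 to 55.1. The Delta ligand gene DLD stood at 39.2 and 46.1 and the oscillating repressor gene her7 at 1.49 and 1.31. The other 9 genes found were under 1 at 2 and 4 hpf, and at 6 hpf these included msgn1 at 125, her1 at 57.0, dlc at 36.3, tbx16l at 33.7, pcdh8 at 33.4, mespab at 30.3, mespaa at 24.0 and fgf24 at 9.64, with tbx6 at 1.87.

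In the Wnt list 2 of 10 genes found rose, namely wnt11f2, a ligand gene of cell movement (0.380 to 61.4), and dkk1b. Both were kept through 4 hpf alone. The beta-catenin genes CTNNB1 (175 and 201) and ctnnb2 (211 and 168) were abundant at both hours. Of 9 genes of Fgf signalling found, 5 rose, among them DUSP6 (0.0525 to 34.2), fgfr4 (0.0108 to 30.5), ETV4 (4.48 to 13.2) and SPRY2 (1.41 to 5.66), and etv5a fell from 127 to 54.4. Of the 7 Fgf genes compared, 3 were kept through 4 hpf alone. Of 11 genes of the neural plate found, 7 rose, led by her5, SOX3, sox19a and irx7 (0.157 to 68.5), and 4 were under 1 at both hours. All 7 were kept through 4 hpf alone, so their direction follows largely from the filter. Over these 11 lists, first-wave genes included, 79 different genes were compared, of which 58 rose and 2, sinup and etv5a, fell, where 10.4% and 3.35% of all compared genes did. Of the 79, 51 were kept through 4 hpf alone, and of the 28 others 7 rose.

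**Figure D3:**
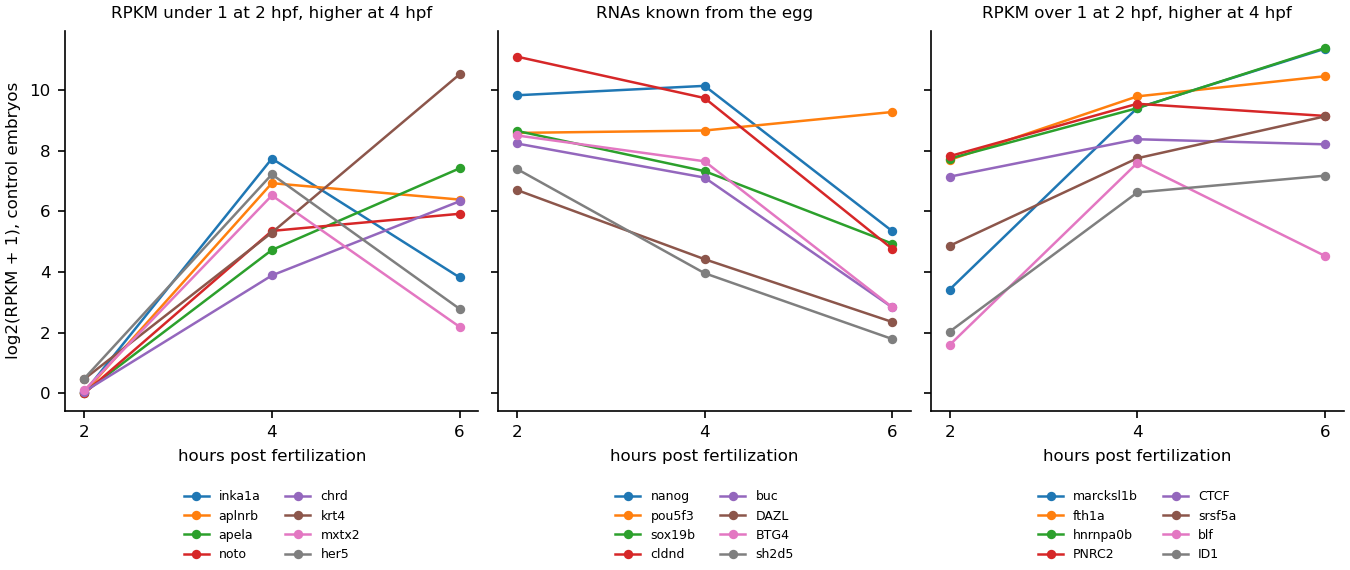
Lines give log2(RPKM + 1) of single genes in control embryos at 2, 4 and 6 hpf, 1 authors' value per hour. On the left, inka1a, her5 and mxtx2 peak at 4 hpf while krt4, apela and chrd go on upward; in the middle, sh2d5, DAZL, buc, cldnd and sox19b are lower at each hour than at the one before, while nanog falls after 4 hpf; on the right are genes that stood over RPKM 1 at 2 hpf and rose.

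Some abundant RNAs of the early embryo also gained. By difference in RPKM, among genes with a usable symbol, the largest gain after the mitochondrial MT-CO1 was of fth1a, the ferritin heavy chain gene, which rose from 207 to 885. ENSDARG00000085168, which has no symbol, gained more than either, from 3740 to 8541. marcksl1b, given above, came next. PNRC2, a decapping cofactor gene, rose from 225 to 747 and the RNA-binding protein gene hnrnpa0b from 213 to 677. Other large gains stayed under 1 log2, as for eef1a1l1, a translation elongation factor gene (750 and 1392), the histone variant gene h3f3a (741 and 1377) and the chaperone gene HSPA8 (734 and 1325). CTCF, which shapes chromatin loops, rose from 140 to 332, and the splicing factor gene srsf5a from 28.2 to 215, the only one of 42 spliceosome and splicing factor genes past 1 log2 in either direction.

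Genes that fell did so partially. Their median RPKM went from 24.8 to 8.74, and the median share left at 4 hpf was 37.0%. Only 22 of the 484 were under 1 at 4 hpf, 0 were listed at 0 and 333 still stood at 5 or more. At 6 hpf 282 of them were lower again by at least 1 log2 and 14 were higher than at 4 hpf by that much. In all, 10 stood above their 2 hpf level. The 4 hpf values that picked these genes also enter the difference from 4 hpf. Shares over all compared genes are not given here, so continued loss is not read as particular to these genes. In summed RPKM over the tables the 484 genes went from 6.88% at 2 hpf to 2.56% and then 0.71%, while the 1499 genes that rose went from 2.21% to 8.77% and 15.9%.

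The largest decrease was of sh2d5, an SH2-domain adaptor gene, from 168 to 14.6, so that 8.70% of the level was left. ano10b, an anoctamin gene, fell from 12.1 to 1.04 and micall2b from 133 to 20.1. NIBAN2 fell from 47.3 to 7.29, the cofilin phosphatase gene SSH2 from 60.8 to 10.6, and AKR1B1, an aldo-keto reductase gene, from 43.6 to 7.60. rasef2 went from 165 to 31.7 and RNASEH1, which degrades RNA paired with DNA, from 81.3 to 15.7. Also among the 15 largest were dip2cb, CCNI2, MFSD12, MLLT1 and sgk1, with 15.1% to 20.4% left, and the germ cell genes DAZL and TDRD6. NIBAN2, AKR1B1 and MLLT1 each stand on 2 gene IDs, of which the one that fell is given.

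By difference in RPKM the largest losses among genes with a usable symbol were of 2 claudin genes, which encode tight junction proteins. cldnd fell from 2197 to 852 and cldng from 1193 to 445. Of the 16 compared claudin genes, a group picked after its values were seen, 5 rose, cldne highest among them. Over all compared genes 10.4% rose. Of the 16, 5 were kept through 4 hpf alone, so their direction follows in part from the filter. These were cldne, cldnb, cldn23.1 and cldn3d, which rose, and cldn10d, which did not reach 1 log2. cth1, a zinc finger RNA-binding protein gene, fell from 1126 to 495, NASP, a histone chaperone gene, from 658 to 275, ppp1r3c2b, a phosphatase regulator gene, from 598 to 257 and thy1 from 506 to 251. mid1ip1l, a maternal cytoskeletal factor gene, went from 1526 to 939 and epcam, a cell adhesion gene, from 628 to 379, both under 1 log2. ENSDARG00000001915, which has no symbol in the name table, lost more than any of these, from 4698 to 1994.

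Of 28 genes found from a list of egg RNAs, 27 were compared. Of these 8 were lower and 1 higher, where 3.35% and 10.4% of all compared genes were. The list was drawn up with earlier results of these data known, so its direction is not independent of them. DAZL (103 to 20.5) and buc2l (132 to 31.5) fell most, followed by cldng, cldnd, org, an oogenesis-related gene (322 to 141), cth1, buc, the Balbiani body gene (301 to 138), and sybu, a motor linker gene of the dorsal determinants (9.24 to 3.85). The median of the list was -0.49, against 0.02 for all compared genes. Another 18 did not reach 1 log2 in either direction, among them the cyclin gene CCNB1 (582 and 461), MOS (43.9 and 37.2), the oocyte growth factor genes GDF9 (23.8 and 18.7) and bmp15 (19.5 and 15.5), and npm2b, a nucleoplasmin gene (127 and 227). The exception was stm, the starmaker gene of the otolith, which went from 5 reads and an RPKM of 0.0141 at 2 hpf to 35.1 at 4 hpf and 413 at 6 hpf.

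Germ plasm RNAs are inherited by the cells that will found the germline. Of 14 genes 4 were lower, against 3.35% of all compared genes, and 0 were higher, with a median of -0.79. This list too was drawn up with earlier results of these data known. It shares genes with the list of egg RNAs, among them DAZL and buc. Beside DAZL and buc the lower genes were TDRD6 (29.6 to 5.34) and DND1 (51.7 to 22.5). NANOS3 (45.9 and 35.0), DDX4, known as vasa (123 and 106), and gra (47.4 and 53.9) did not reach 1 log2. Among 9 compared tudor-domain genes, a group picked after its values were seen, tdrd6b (34.8 to 9.52) and TDRD1 (33.2 to 15.5) also fell, and tdrd5 stood at 12.0 and 16.1.

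Among genes that act on maternal RNA, 2 of 31 genes of mRNA decay fell, the decapping activator LSM1 (79.3 to 21.4) and the deadenylase CNOT7 (25.0 to 6.28). BTG4, a deadenylation adaptor of the egg, stood at 362 and 200, CNOT8 at 323 and 281, and YTHDF2, a reader of methylated RNA, at 35.9 and 61.2. Among 18 compared maternal RNA-binding protein genes cth1 alone passed 1 log2. Over all compared genes 3.35% were lower, and with so few genes nothing is read from these counts. YBX1 stood at 571 and 681, pabpc1a at 426 and 408, IGF2BP3 at 80.9 and 121 and LSM14B at 488 and 259.

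Of 36 cell cycle genes 31 did not reach 1 log2, and the median was -0.14. The 5 that rose were the inhibitor genes cdkn1a (0.0637 to 14.4) and cdkn1ca (0.993 to 20.3), WEE1 (6.04 to 22.0), and copies of 2 replication helicase genes. This count is near the 10.4% over all compared genes, and all but WEE1 were kept through 4 hpf alone. MCM3 rose from 0.185 to 5.28 while the maternal paralog mcm3l stood at 63.2 and 52.4. MCM6 stands on 2 IDs, and one rose from 0.552 to 11.4 while the other stood at 106 and 125. By 6 hpf the order within both pairs had turned, with MCM3 at 43.0 over mcm3l at 3.13, and the MCM6 IDs at 88.5 and 28.4. WEE2, the oocyte form of the Wee kinase, stood at 291 and 168.

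Such pairs were looked for among all symbols that stand on more than 1 compared ID. Of 468 such symbols, 20 had an ID that rose beside one at or below its 2 hpf level. Only symbols on exactly 2 compared IDs could be counted. Over all compared genes 10.4% rose and the median difference was 0.02. How often unrelated genes would pair in this way was not worked out, so nothing is read from the count. PRICKLE1 rose from 0.0222 to 31.8 on one ID and stood at 4.66 and 4.53 on the other, FZD7, a Wnt receptor gene, from 1.62 to 33.7 beside 85.6 and 82.9, and DEPDC7 from 0.0287 to 16.5 beside 3.20 and 2.42. How reads shared between near-identical copies were counted is not given in the sources used here.

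In a list of cell death and cell cycle arrest genes 6 of 18 genes rose and 1 fell, where 10.4% and 3.35% of all compared genes did. Of the 6, 4 were kept through 4 hpf alone. Those that rose included, beside cdkn1a, PHLDA3, the cell death genes bbc3 (0.440 to 6.28) and pmaip1 (5.07 to 16.6), and sesn3 (0.122 to 4.08). MDM4 fell from 81.2 to 21.6, while mdm2 stood at 32.8 and 43.8. Of 12 compared heat shock genes HSPB1 rose (2 genes after trimmed-mean rescaling), and HSP90AB1 (278 and 510) and HSPA8 did not reach 1 log2. In the chromatin list CTCF rose and the DNA methyltransferase gene DNMT1 fell from 278 to 117. The other 11 compared genes, among them hmga1a (467 and 801), did not pass 1 log2.

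Genes of cytosolic ribosomal proteins, translation initiation factors and histones had medians above the 0.02 of all compared genes. Other large families did not, such as spliceosome and splicing factor genes with a median of -0.03 over 42 genes. The share past 1 log2 upward over all compared genes was 10.4%, and the ribosomal and initiation factor counts below are near it. Of 74 compared genes of cytosolic ribosomal proteins, 72 had a difference above 0, with a median of 0.49, and 6 passed 1 log2, led by RPSA2 (23.9 to 82.3), RPL4 (50.5 to 131) and RPL8 (57.3 to 145). Translation initiation factors had a median of 0.31 over 58 genes, and 6 rose, such as EIF3K (14.2 to 51.3) and EIF2S2 (43.2 to 133). Histone genes with symbols had a median of 0.75 over 16 genes, and 6 rose, among them histh1l1 (0.277 to 15.6), h2ax (2.67 to 26.9) and hist2h3c (2.80 to 26.6). Most replication-dependent histone mRNAs of animals lack a poly(A) tail, which the RNA here was selected by.

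Nuclear genes of the respiratory chain and its assembly had a median of 0.42 over 91 compared genes. Of these 21 were higher and 1 lower, where 10.4% and 3.35% of all compared genes were. This group and those of mitochondrial ribosomal proteins, the proteasome, claudins, znfl, small nucleolar RNA, gadd45, drl-like and microRNA genes were picked after their values were seen. Their largest increases were of ndufa5 (1.68 to 10.5) and atp5mc3b (39.0 to 128), and cox17, a copper chaperone gene, went from 221 to 109, a difference that passed 1 log2 as deposited but did not pass 1 log2 after trimmed-mean rescaling or quantile normalization. The 13 mitochondrially encoded genes lay between -0.36 and 0.24, and MT-CO1 stood at 7834 and 9262. Mitochondrial ribosomal protein genes had a median of 0.37 over 65 genes with 7 higher, near the share over all genes, or 4 after quantile normalization, and proteasome genes 0.51 over 45 genes with 6 higher and 1 lower. RNA polymerase and general factor genes had a median of -0.07 over 89 genes, with 2 higher (1 after quantile normalization) and 3 lower. There polr3gla, a subunit gene of RNA polymerase III, rose from 0.346 to 85.3 and MED19 fell from 19.5 to 3.89. The proteasome counts and the 3 lower RNA polymerase genes are near the shares over all compared genes, and the 2 higher are under that share. Nothing is read from these counts.

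Of 165 zinc finger genes named znf that were found, 132 were compared. Of these 29 were higher and 5 lower, where 10.4% and 3.35% of all compared genes were, and the lower count is near that share. Of the 132, 36 were kept through 4 hpf alone. After znf1089 came znf1127 (0.0208 to 66.7), znf1065 (0.848 to 47.6) and znf1058 (0 to 24.8), and of these znf1127 and znf1058 were back to 2.06 and 1.84 at 6 hpf. The decreases were smaller, as for ZNF513 (20.2 to 7.42). The 9 genes named znfl were each under an RPKM of 1 at 2 hpf, and so were compared only because of their level at 4 hpf, which ran up to 21.8 for znfl2a and 14.8 for znfl1g. Small nucleolar RNA genes, which guide RNA modification and are mostly made from introns of host genes, were found on 52 IDs. Of these, 33 were under the floor and 19 rose, of which 18 were kept through 4 hpf alone, so that their direction follows largely from the filter. They were led by snord31.2 (0.408 to 49.1), snord22 (0 to 32.0) and snord31.1 (0 to 29.7). The RNA was selected by its poly(A) tail, and whether these reads came from the small RNAs or from host transcripts was not tested. Of 6 IDs whose symbol begins with GADD45, 5 were compared and 4 rose, among them the stress-response gene GADD45A (0.00723 to 15.6). These 4 were kept through 4 hpf alone, so their direction follows in part from the filter. Of 218 microRNA gene IDs 6 were compared, with MIR92A1 highest (2.24 to 15.1). Which transcripts the reads at microRNA genes came from was not tested either.

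Whether genes that rose lie next to each other in the genome was looked at after the values were seen. Symbols of 3681 compared genes were found in the RefSeq gene order of a later assembly than the one the authors used, which gave 808 pairs of compared neighbours. In 17 pairs both genes rose, and in 12 of these both were under an RPKM of 1 at 2 hpf, so that they entered the pairs through their level at 4 hpf. Of the places in all pairs, 8.73% held a gene that rose, and the partner of such a gene had risen in 24.1% of cases. For genes that fell these shares were 3.65% and 3.39%. Most of the 17 share a name stem. The genes drll.3 (0.0258 to 80.5), drll.2 (0.0283 to 6.05), drl (0.191 to 8.23) and drll.1 (0.0756 to 12.7) lie in a row, as do the keratin genes krt5, krt8 and krt18a.1. Other such sets were apoa4b.2, apoeb and apoc1, her11 (0.319 to 37.6) with her5, lratb.1 (0.0585 to 22.2) with lratb.2 (0 to 5.67), and cldn3d (0 to 1.34) with cldnb (0.126 to 13.1).

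The spread between the 2 libraries of an hour could be recovered for genes with 20 to 150 reads. The log2 ratio between libraries spread by 0.78 (median absolute deviation, scaled to a standard deviation) at 2 hpf over 1784 genes and by 0.73 at 4 hpf over 2690 genes, where counting error alone gives 0.49 and 0.46. At 2 hpf 22.3% of these genes differed between libraries by 2-fold or more. With this spread the difference between the 2 group values has a standard deviation of 0.53. Most of these genes lie under the RPKM floor, and for well expressed genes the spread could not be recovered.

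Among 1467 genes with 20 to 150 reads at both hours, both libraries of 4 hpf lay above both of 2 hpf for 394 genes (26.9%) and below for 260 (17.7%), and the libraries of the 2 hours overlapped for 813. With 2 libraries per hour such an order often arises without any change, so these counts are not numbers of changed genes. Of these 1467 genes 160 were among the compared genes.

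**Figure D4:**
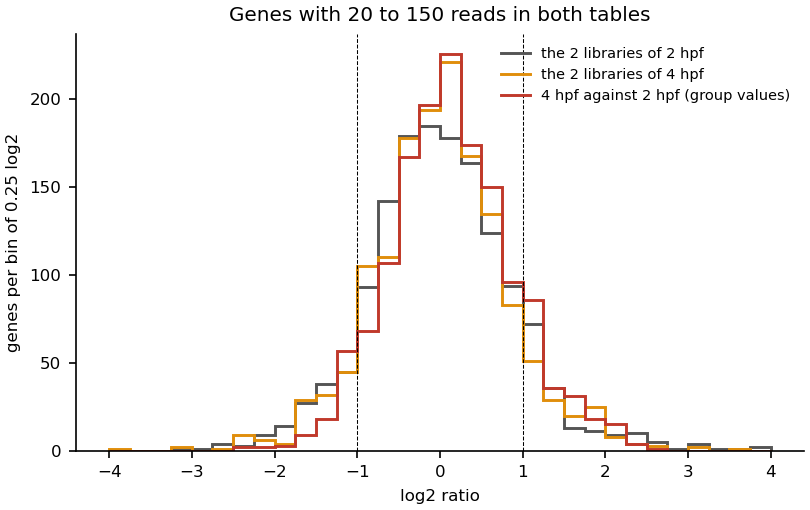
Histograms of the log2 ratio in bins of 0.25 for the 1467 genes with 20 to 150 recovered reads at both hours, with the number of genes on the vertical axis. The ratio between the 2 libraries of 2 hpf (grey) and of 4 hpf (orange) sets single libraries side by side, while that of 4 hpf against 2 hpf (red) sets means of 2 libraries side by side, for which the spread between libraries gives a standard deviation of 0.53. The red ratio has 191 genes beyond 1 log2 upward and 91 downward.

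In embryos mutant for ddx3xb 525 (3.63%) of the same 14469 genes were higher and 41 (0.283%) lower over the same hours. The floor on control values favours changes in controls. Over the 14014 genes with an RPKM of at least 1 at 2 or 4 hpf in mutants instead, an alternative chosen after seeing the data, 547 were higher and 45 lower in mutants, and 1023 were higher and 479 lower in controls. The genes chosen as higher in controls had a median difference of 1.59 in controls and 0.69 in mutants, and those chosen as lower had -1.26 and -0.47. A choice made on control values favours larger differences in controls, so the sizes are not a like comparison. In mutants 1396 of the 1499 genes were above 0 and 465 of the 484 below 0, where 53.9% and 45.8% of all compared genes were. The genes higher in both numbered 493, which is 32.9% of the control list and 93.9% of the mutant list. The genes lower in both numbered 28, which is 5.79% of the control list and 68.3% of the mutant list.

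Single genes differed in the size of the log2 difference in mutants. WEE1 had log2 differences of 1.71 in controls and 1.76 in mutants, grhl3 6.30 and 5.42, and znf1089 7.09 and 5.97. HSPB1 had 6.38 and 2.40, krt8 3.75 and 0.12, and bmp7a 3.18 and 0.43. Of the decreases, sh2d5 (-3.44 and -1.52) and micall2b (-2.66 and -1.83) passed 1 log2 in both. cldng (-1.42 and -0.05) and buc (-1.12 and -0.03) were near 0 in mutants. Levels at 2 hpf, which enter these differences, were not alike in the genotypes and differed in either direction. HSPB1 stood at 0.241 in controls and 3.72 in mutants, krt8 at 1.14 and 3.46, and WEE1 at 6.04 and 1.85. The difference between genotypes was not tested, as each rests on 1 value per hour.

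**Figure D5:**
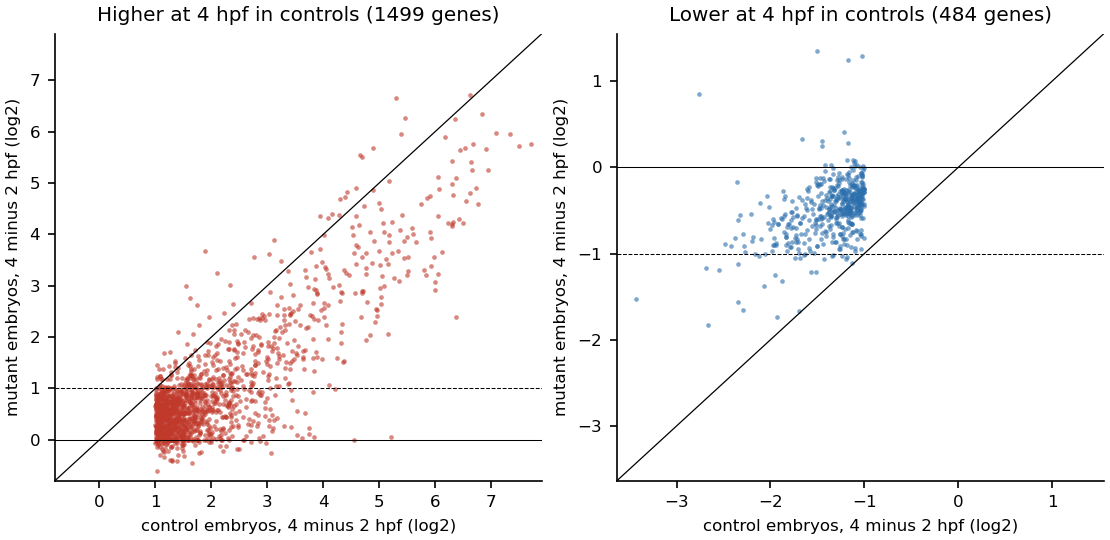
Differences in log2(RPKM + 1), 4 minus 2 hpf, in control embryos (horizontal) and mutant embryos (vertical) for the 1499 genes higher in controls (left) and the 484 lower in controls (right). The solid diagonal marks equal differences and the dashed line 1 log2 in mutants. Most points lie nearer to 0 on the mutant axis, and 493 on the left and 28 on the right pass 1 log2 in mutants. On the left 1396 are above 0 in mutants, where 53.9% of all compared genes are. The genes were chosen on the control values.

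At 6 hpf 578 of the 1499 genes that had risen were higher again by at least 1 log2. Another 293 were lower than at 4 hpf by that much and 628 lay between. The 4 hpf values that picked these genes also enter this difference, which favours a return. Shares over all compared genes are not given here, so nothing is read from these counts. At 6 hpf krt4 stood at 1465, krt18a.1 at 1138 and HSPB1 at 1686. blf, a zinc finger gene that rose from 2.02 to 193, was back at 22.1, vgll4l at 14.0 and her5 at 5.91. dharma stood at 1.06 and ndr1 at 1.68, while apela stood at 170 and chrd at 79.7.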

How the data were processed

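RNA of whole embryos was isolated with TRIzol, its poly(A) fraction was taken with Dynabeads, and stranded libraries came from a KAPA kit, per the labels' protocols. The submitters' processing notes list build Zv9 and cutadapt 1.13, Trimmomatic 0.36, HISAT2 2.0.5 and SAMtools 1.9 without saying what each did. How reads were counted, on which annotation and with which use of strand is not given in the sources used here. Per gene, the authors deposited RPKM, 1 value per gene for each group of 2 samples, in 6 tables, of which 5 were used. Samples were grouped by genotype and hour. Genes with RPKM of at least 1 at 2 or 4 hpf were compared by log2(RPKM + 1), with a threshold of 1. Named genes were the 15 largest changes per direction at RPKM of at least 5, the 10 highest per hour, the 10 largest gains and losses of RPKM, and members of 22 gene lists and 7 name patterns; 10 further patterns, symbol pairs and neighbours were chosen after values were seen. Members and lists were chosen with earlier results of these data known. Reads per library were recovered for 7492 genes from low values of 4 tables, which fall on a grid of whole reads if each value is the plain mean of 2 libraries; this was tested on simulated data, and depths rest on that assumption. Symbols matched 21939 IDs; neighbours came from the RefSeq annotation of GRCz12tu, by symbol only. Python 3.11.15, NumPy 2.4.6, pandas 2.3.3, SciPy 1.17.1 and Matplotlib 3.10.9 were used.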

Additional observations from a re-analysis of the deposited data

How the results depend on the processing

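The count of higher genes (1499) was 807 with an RPKM of at least 5 at either hour, 502 with at least 1 at both hours (an alternative chosen after seeing the data) and 525 with a threshold of 2 log2. The count of lower genes (484) was 738 with a pseudocount of 0.1 and 30 with the threshold of 2. Genes higher in both genotypes (493) numbered 952 with the pseudocount of 0.1, and genes lower in both (28) numbered 60 with that pseudocount and 43 with quantile normalization, which moved the median of all compared genes from 0.02 to -0.08. The other settings tried on these 4 counts, and a floor on the mutant tables for the counts in either genotype, stayed within 1.5 times. Counts within lists that moved further under a rescaling were those of heat shock (1 to 2 higher, trimmed mean), respiratory chain (1 to 0 lower, both rescalings), and, under quantile normalization, mitochondrial ribosomal protein (7 to 4 higher), RNA polymerase (2 to 1 higher) and the enveloping layer, ventral and cytosolic ribosomal lists (0 to 1 lower). The pseudocount of 0.1 moved 13 of 39 list medians and 16 of 56 ranked genes by more than 0.53 log2, while the shifts reached 0.03 under trimmed-mean rescaling and, under quantile normalization, 0.35 for medians and 0.46 for genes. Medians next to 0 (genome activators, maternal RNA-binding proteins, chromatin, claudins) changed sign or reached 0 under a rescaling, and so did MT-CO1, MT-CO2, MT-CO3 and MT-CYB under quantile normalization. No paired analysis was possible because each table holds 1 value per group, and leaving out a replicate could not be run for the same reason. Depth limits the 2 hpf values of genes that rose from a few reads.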
